A study of Mus musculus with 7 samples.

Results

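Plasma cells (PCs) are told apart from other B lineage cells by proteins at their surface, and the 7 genes described here encode such proteins: Sdc1, Spn, Cd9, Cd93, Epcam, Cd320 and Ptprc. They were chosen by name, with earlier results of these data known, so they are not an independent set. All 7 were found among the 48795 Ensembl genes of the deposited table, in all 7 libraries. The series holds bulk RNA sequencing of 3 memory B cell (MBC) libraries and 4 PC libraries. All came from spleens of female wild-type C57BL/6 mice aged 8 to 12 weeks, at day 10 after intravenous injection of sheep red blood cells, an antigen that drives a germinal center (GC) response. Cells of both groups were first labelled with CD43 MicroBeads for a magnetic enrichment of B cells and then sorted by flow cytometry, MBCs as B220+ CD138neg CD38+ CD273+ and PCs as B220lo CD138+, both without IgD. The labels do not say whether the libraries of a group came from separate animals or from pools, so the tests measure the spread between these libraries, which may be technical.

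Differentiation of a B cell into a PC replaces much of its surface. Receptors and coreceptors that sense antigen are withdrawn, and adhesion proteins that keep the cell in a survival niche are gained. CD138 (syndecan-1, gene Sdc1) is a heparan sulfate proteoglycan that carries growth factors and the survival cytokine APRIL, and it is the standard PC marker. CD45 (Ptprc) is the receptor tyrosine phosphatase of leukocytes that tunes Src family kinases, and B220 is its large isoform on B cells, which declines on PCs. CD43 (Spn) is a long, heavily O-glycosylated sialomucin, CD9 a tetraspanin that organises membrane microdomains, CD93 a C-type lectin-like adhesion receptor needed for long-lived PCs, EpCAM a homophilic adhesion molecule best known from epithelia, and CD320 the receptor that takes up vitamin B12 bound to transcobalamin.

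CD138, B220 and CD43 are also part of how the cells were obtained, so the values of Sdc1, Ptprc and Spn cannot be read as independent of the sort. CD138 and B220 were gates, and CD43 was the bead target. The labels do not say which fraction of the magnetic column was sorted. The other genes, Cd9, Cd93, Epcam and Cd320, were used in no gate.

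The sequence before each start site is shown for the members that were higher in PCs and had an entry in the RefSeq promoter table (GRCm38.p6), so that what precedes the higher transcripts can be read. Each run reads 5′ to 3′ on the gene's own strand and ends at the base before the annotated gene. Capitals mark the motifs found, GGGCGG (the GC box bound by Sp factors) and CAGGTG (an E-box bound by E proteins), on either strand. The Sdc1 stretch is chr12:8771146-8771322 (+ strand), the Cd9 stretch is chr6:125494792-125495010 (- strand) and the Epcam stretch is chr17:87635729-87635978 (+ strand).
Sdc1: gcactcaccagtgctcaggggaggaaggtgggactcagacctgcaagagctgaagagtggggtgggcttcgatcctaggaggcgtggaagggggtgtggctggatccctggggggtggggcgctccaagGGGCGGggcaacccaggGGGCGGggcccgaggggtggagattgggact
Cd9: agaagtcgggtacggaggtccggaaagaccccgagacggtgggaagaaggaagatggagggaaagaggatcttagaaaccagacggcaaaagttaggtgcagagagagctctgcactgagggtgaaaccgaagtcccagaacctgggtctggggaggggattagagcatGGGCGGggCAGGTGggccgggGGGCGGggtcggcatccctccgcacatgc
Epcam: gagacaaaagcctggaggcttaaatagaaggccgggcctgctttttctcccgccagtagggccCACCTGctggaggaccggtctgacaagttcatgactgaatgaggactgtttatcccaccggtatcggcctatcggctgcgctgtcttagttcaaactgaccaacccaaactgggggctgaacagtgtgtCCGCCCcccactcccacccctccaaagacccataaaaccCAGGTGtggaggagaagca

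All 3 stretches held a GC box, 2 copies in Sdc1, 2 in Cd9 and 1 in Epcam, and 35.7% of the 32851 promoter windows of 300 bases in the table hold one. Cd9 held 1 E-box and Epcam held 2, against 20.2% of all windows with at least 1. None of these 3 windows held TATAAA (the TATA box; 13.6% of all windows) or TGACGTG (a site of the unfolded protein response; 2.01%). The stretches shown are 177 to 250 bases long, shorter than the windows, and the whole Sdc1 window held 3 GC boxes. Among members not called higher, 1 of the 2 Cd320 windows held 3 GC boxes, and those of Spn and Ptprc held 0. For Ptprc 1 of 2 windows held TATAAA. These matches describe the letters in the windows and no binding was measured. For Cd93 no sequence is shown.

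Values are given as scaled TPM, which is the authors' TPM (reads of a gene per transcript length, as a share of the library) divided by 1 factor per library so that the typical gene has the same level in every library. The scaling matters because immunoglobulin transcripts fill much of a PC library and lower the TPM of everything else in it. TPM is already divided by transcript length, so levels of different genes can be set side by side, though only roughly. How well the length used fits each gene was not tested. From the steps between low values, 1 TPM of a transcript of 1 kb was estimated to stand for 6.24 to 11.6 reads in the MBC libraries and 9.38 to 16.5 in the PC libraries, so the ranges overlapped. The floor, 3 reads of a transcript of 1 kb, was 0.126 to 0.289 scaled TPM for MBCs and 0.254 to 0.393 for PCs. A fold against a group at or under its floor is given as a lower bound, taken against the highest floor of the MBC libraries.

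The labels were checked against marker transcripts. Of 7 PC markers (such as Prdm1, Xbp1 and Jchain) 7 were higher in PCs, and of 5 mature B cell markers 4 were lower. Of the 5 MBC markers 0 were called lower in PCs by limma over all libraries (2, Pdcd1lg2 and Ccr6, had an unadjusted p under 0.05), and 4 were without MBC replicate 3. The library labelled MBC replicate 3 stood apart: its 5 MBC markers (Cd38, Pdcd1lg2, Cd80, Nt5e and Ccr6) summed to 17.2 scaled TPM, against 297.0 and 368.5 in MBC replicates 1 and 2 and 15.2 to 28.7 in PCs, and its 6 GC B cell markers summed to 625.2, against 232.1 and 237.8 in the other MBC libraries. MBC replicate 2 carried red cell transcripts, with 5 erythroid markers summing to 3214 scaled TPM against at most 102.2 in any other library. Results are therefore given with and without MBC replicate 3.

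Of the 7 genes, 4 were higher in PCs (Sdc1, Cd93, Epcam and Cd9) and 1 was lower (Ptprc). Spn and Cd320 did not pass the test. A gene was called at an adjusted p under 0.05 (limma across all 11573 genes tested, Benjamini-Hochberg) with a log2 fold change of at least 1 in size. By this rule 8.55% of all genes tested were called, 6.41% higher and 2.14% lower in PCs. Without MBC replicate 3 again 4 of the 7 genes were called higher and 1 lower, where 21.7% of all genes were called, 13.8% higher and 7.94% lower. Sdc1, Cd93 and Epcam were also called when replicates were paired, by number or by the code in their titles, whereas Cd9 and Ptprc were not. Each paired fit also leaves out a PC library without a partner, PC replicate 4 by number and PC replicate 2 by title code.

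**Figure D1:**
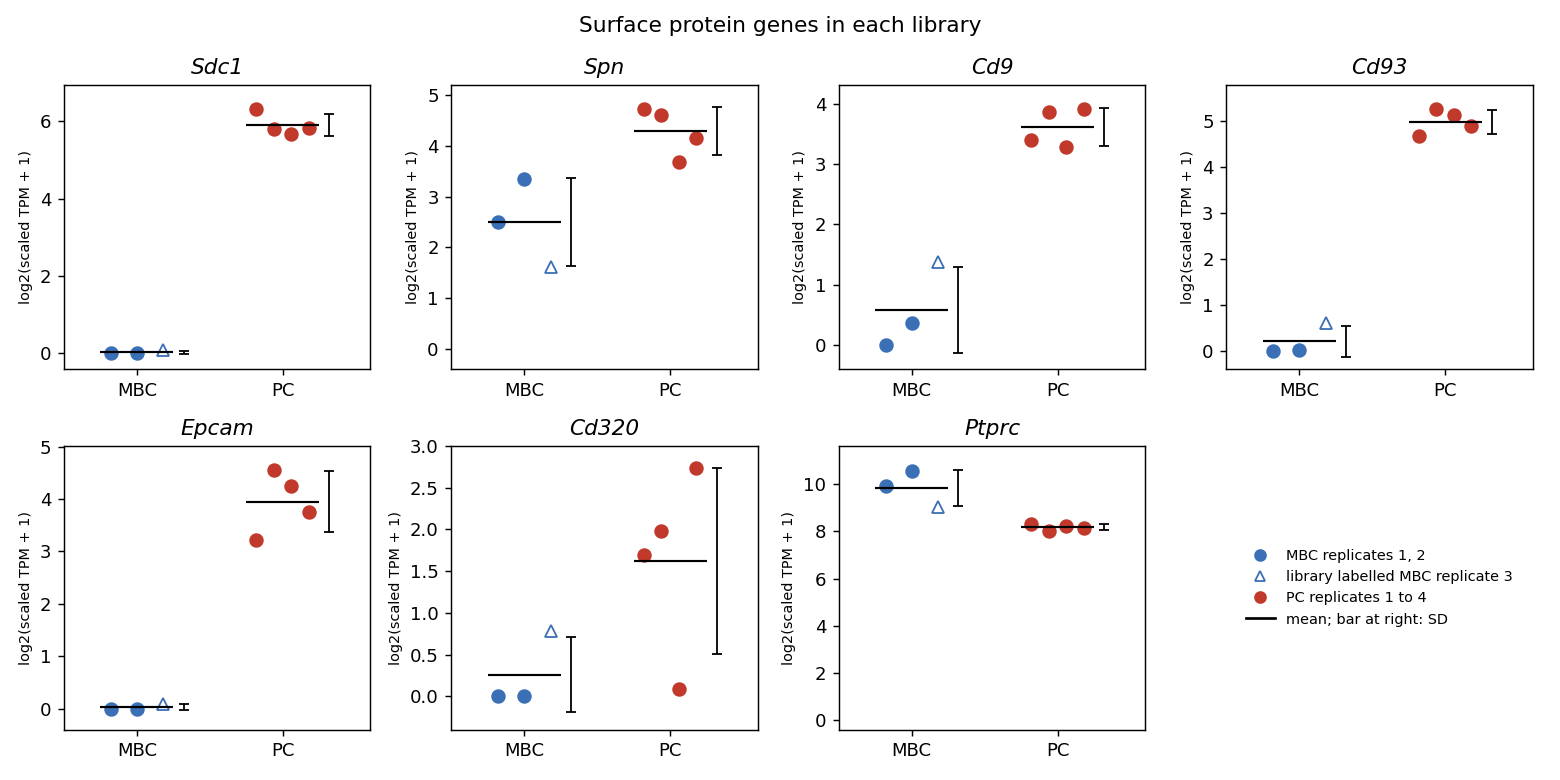
Each panel plots 1 gene, with log2(scaled TPM + 1) on the vertical axis and the 3 MBC and 4 PC libraries side by side; horizontal lines are group means and the bars at the right are 1 SD. Every PC library lies above every MBC library for Sdc1, Spn, Cd9, Cd93 and Epcam, the groups overlap for Cd320, and every PC library lies below every MBC library for Ptprc.

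In 6 of the 7 genes the groups did not overlap, which was so for 21.7% of all genes tested (13.0% with every PC library above every MBC library and 8.68% below). All 7 genes passed the filter on low values (1 TPM in at least 3 libraries), but not all in both groups. Sdc1 and Epcam reached 1 TPM in 0 MBC libraries and so were tested only because they were high in PCs. Cd9, Cd93 and Cd320 reached 1 TPM in 1 MBC library, each time the one labelled MBC replicate 3, so they too passed only through their PC libraries. All members called higher in PCs thus passed the filter through the group where they are high. Spn and Ptprc reached it in all 7.

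Sdc1 (ENSMUSG00000020592; GRCm38 chr12:8771323-8793715, + strand) was listed at 0, 0 and 0.0585 scaled TPM over MBC replicates 1 to 3, and PC replicates 1 to 4 had 78.1, 54.4, 49.6 and 56.1. All 3 MBC libraries were at or under the floor and every PC library was far above it. The PC mean of 59.5 ± 12.7 (SD, n = 4) was at least 206.0-fold higher, and stood at the 90.4th percentile of the tested genes in PCs. On the log2 scale the fitted difference was 5.87 (SE 0.42, adjusted p = 5.4e-05), a value that depends on the pseudocount of 1. It was 5.90 without MBC replicate 3 (adjusted p = 1.2e-04) and between 5.74 and 5.95 over the 7 fits that left out 1 library each. Since CD138 divided the 2 sorts, this shows that the gate and the transcript went together.

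Ptprc (ENSMUSG00000026395; chr1:138062861-138175708, - strand) was among the most abundant transcripts of both groups. MBC replicates 1 to 3 had 969.6, 1526 and 529.2 scaled TPM of it, and PC replicates 1 to 4 had 314.9, 261.8, 301.0 and 280.9. The PC libraries lay close together, with a coefficient of variation of 8.01%, while the MBC libraries differed among themselves, lowest in the library labelled MBC replicate 3. Mean Ptprc was 1008 ± 499.4 (SD, n = 3) over the MBC libraries and 289.7 ± 23.2 (SD, n = 4) over the PC libraries, and limma put the log2 fold change at -1.67 (SE 0.38, adjusted p = 0.0255). Omitting MBC replicate 3 gave -2.07 (adjusted p = 0.00335). Omitting any of the other 6 libraries ended the call, with an adjusted p of up to 0.0813 and a log2 fold change between -1.71 and -1.31. The call was also lost with replicates paired by number (-1.66, adjusted p = 0.0974) and by title code (-1.62, adjusted p = 0.0615). These fits also lack PC replicate 4 and PC replicate 2, whose omission alone gave an adjusted p of 0.072 and 0.0813 (limma). The effect of pairing cannot be told apart from that of the missing library. The table gives 1 value for the 13 annotated transcripts of Ptprc, so the B220 isoform and the shorter forms of CD45 cannot be told apart. A gene annotated on the same strand within it, A130071D04Rik, was listed at 140.23, 23.30 and 31.93 TPM as deposited in the MBC libraries and at 2.94 to 8.89 in the PC libraries, and how reads were divided between them is uncertain.

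Spn (ENSMUSG00000051457; chr7:127132232-127137823, - strand) was present in both groups. MBC replicates 1 to 3 had 4.66, 9.23 and 2.07 scaled TPM and PC replicates 1 to 4 had 25.5, 23.3, 11.9 and 16.8. No PC library was as low as any MBC library, but MBC replicate 2 and PC replicate 3 came close. Mean Spn was 5.32 ± 3.62 (SD, n = 3) over the MBC libraries and 19.4 ± 6.16 (SD, n = 4) over the PC libraries, and its log2 fold change of 1.80 (SE 0.53) did not pass (adjusted p = 0.0709). Of the 7 fits with 1 library omitted it passed in 1, that without MBC replicate 2 (2.23, adjusted p = 0.0291), and omitting MBC replicate 3 gave 1.37 (adjusted p = 0.0756). With TPM as deposited the log2 fold change was 0.65 (adjusted p = 0.366). Within a library, Spn stood at 0.481, 0.605 and 0.391 per 100 of Ptprc in the MBC libraries and at 8.08, 8.88, 3.97 and 5.99 per 100 in the PC libraries, a ratio that also moves with Ptprc, whose mean in PCs was 0.287 of that in MBCs. T cells also bear CD43, and the summed level of 6 T cell markers was 0 to 1.08 scaled TPM in MBCs and 14.6 to 35.2 in PCs, where both markers tested (Cd3e and Trac) were higher. Of the markers under the filter, Cd4 was at 0 to 0.112 in MBCs and 0.362 to 6.42 in PCs without overlap, and Cd3d, Cd3g and Cd8a reached at most 1.68, 2.42 and 0.502 in PCs. MBC replicate 2, on which the call turned, is also the library with the erythroid transcripts (3214 scaled TPM in sum). The part of either in the Spn values was not tested.

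Cd93 (ENSMUSG00000027435; chr2:148436640-148443563, - strand) went from near absence to a moderate level. It was listed at 0, 0.0135 and 0.507 scaled TPM over MBC replicates 1 to 3, and PC replicates 1 to 4 had 24.4, 37.2, 33.8 and 28.5. The 1 MBC library with a level above the floor was the one labelled MBC replicate 3, at 1.64% of the PC mean. Cd93 has a single annotated transcript of 6677 bases, and its estimated read numbers were 0, 0.905 and 77.7 in the MBC libraries and 1455 to 2443 in the PC libraries. Mean Cd93 was 0.173 ± 0.289 (SD, n = 3) over the MBC libraries and 31.0 ± 5.69 (SD, n = 4) over the PC libraries, the MBC mean resting almost wholly on MBC replicate 3. The log2 fold change was 4.78 (SE 0.46, adjusted p = 2.0e-04), 4.97 without MBC replicate 3 (adjusted p = 3.0e-04), and it was called in 7 of 7 fits that left out 1 library.

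The nearest protein-coding gene to Cd93 had a like profile. Thbd encodes thrombomodulin, an anticoagulant receptor of the same group XIV of C-type lectins, and lies 28452 bases from Cd93 on the same strand (chr2:148404466-148408188). Its level was 0, 0 and 0.0585 scaled TPM in the MBC libraries and 15.6, 27.6, 24.6 and 26.9 in the PC libraries, which is at least 81.9-fold higher (log2 fold change 4.57, SE 0.47, adjusted p = 3.0e-04). The pseudogene Gm14119, between them, and Sstr4, beyond Thbd, were listed at 0 in all 7 libraries, and the noncoding Gm14120, on the other side of Cd93, reached at most 0.935. The remaining group XIV lectins, Clec14a and Cd248, and the CD93 ligand gene Mmrn2 were at 0 in every library.

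Cd93 and Thbd are also endothelial and myeloid genes, and CD93 marks immature B cells. Of 5 endothelial markers Tek and Emcn were at 0 in all libraries, and the sum of the 5 was 0 to 0.210 scaled TPM among the MBC libraries and 0.544 to 2.55 among the PC libraries. The sum of 8 myeloid markers was 2.32 to 29.0 in MBCs and 2.15 to 7.68 in PCs, with S100a9 and Ly6g at 0 throughout. The 5 immature B cell markers summed to 0 to 0.757 in MBCs and 1.98 to 9.08 in PCs. The part of such cells in the Cd93 and Thbd values was not tested.

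Epcam (ENSMUSG00000045394; chr17:87635979-87651129, + strand) was listed at 0, 0 and 0.0682 scaled TPM over MBC replicates 1 to 3, and PC replicates 1 to 4 had 8.35, 22.6, 17.9 and 12.5. The MBC libraries were at or under the floor and the PC libraries spread widely, PC replicate 1 lowest and PC replicate 2 highest. The PC mean of 15.3 ± 6.20 (SD, n = 4) was at least 53.1-fold higher, with a fitted log2 difference of 3.91 (SE 0.52, adjusted p = 0.00134) that was 3.95 without MBC replicate 3 (adjusted p = 0.00287). Of 4 epithelial markers, the keratin genes Krt8 and Krt19 were at 0 in all 7 libraries, and the sum with Krt18 and Cdh1 was 0 in PC replicates 1 and 3 and at most 0.892 in any library.

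Cd9 (ENSMUSG00000030342; chr6:125460266-125494791, - strand) was low in MBCs and rose to a level between Epcam and Cd320 in PCs. It was listed at 0, 0.290 and 1.61 scaled TPM over MBC replicates 1 to 3, and PC replicates 1 to 4 had 9.60, 13.6, 8.80 and 14.2. The library labelled MBC replicate 3 had the highest MBC level, at 14.0% of the PC mean, and still lay below every PC library. Mean Cd9 was 0.634 ± 0.860 (SD, n = 3) over the MBC libraries and 11.6 ± 2.76 (SD, n = 4) over the PC libraries, and the log2 fold change was 3.04 (SE 0.53, adjusted p = 0.00685), or 3.44 without MBC replicate 3 (adjusted p = 0.00334). Pairing replicates ended the call, by number (2.94, adjusted p = 0.0745) and by title code (2.96, adjusted p = 0.0546). These fits also lack PC replicate 4 and PC replicate 2, and omitting either alone kept the call (limma, adjusted p = 0.0343 and 0.0374). Platelets and B-1 cells carry CD9 too. The sum of 5 platelet markers was at most 4.58 scaled TPM in MBCs and 1.40 in PCs, and 3 B-1 markers summed to 1.38 to 13.6 in MBCs and 11.9 to 23.5 in PCs. Bhlhe41 made up most of the PC sums (10.3 to 21.9), while Cd5 reached at most 1.59 in any library. The part of B-1 derived PCs in the Cd9 values was not tested. An antisense gene annotated across Cd9, Gm28809, was listed at up to 3.78 TPM in PC replicate 1 and at 0.46 or less in the others.

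Cd320 (ENSMUSG00000002308; chr17:33843091-33849774, + strand) was the lowest of the genes in PCs and the least even. MBC replicates 1 to 3 had 0, 0 and 0.716 scaled TPM and PC replicates 1 to 4 had 2.23, 2.96, 0.0615 and 5.63. PC replicate 3 was under its floor and below the library labelled MBC replicate 3, so the groups overlapped, and the coefficient of variation in PCs was 84.4%. Mean Cd320 was 0.239 ± 0.414 (SD, n = 3) over the MBC libraries and 2.72 ± 2.30 (SD, n = 4) over the PC libraries, and the log2 fold change of 1.36 (SE 0.63) did not pass (adjusted p = 0.223). It passed in 0 of the 7 fits that left out a library, and without MBC replicate 3 it was 1.62 (adjusted p = 0.154).

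**Figure D2:**
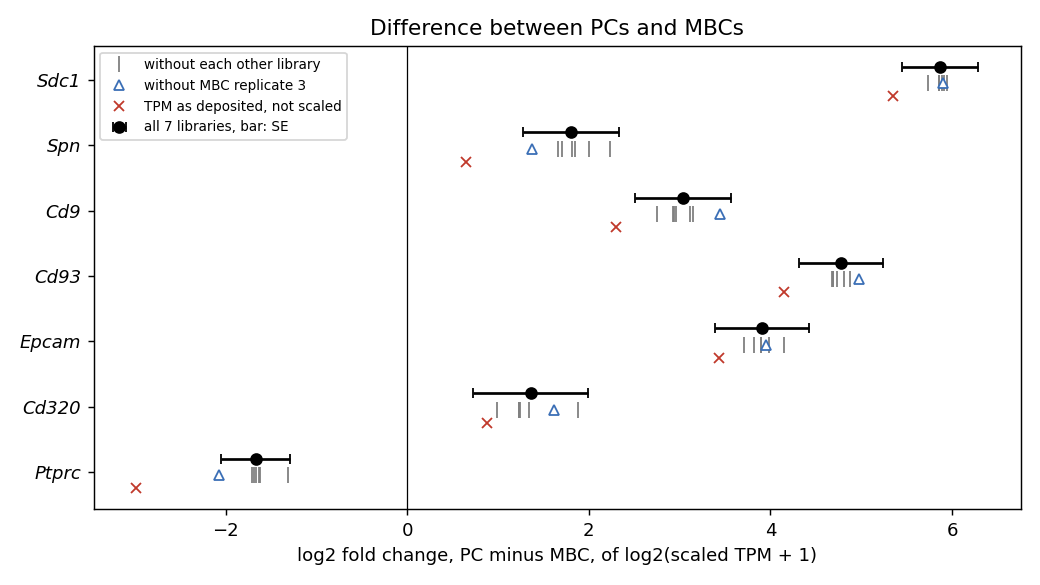
The log2 fold change of each gene (PC minus MBC; horizontal axis) is shown for all 7 libraries with its SE, for the fits that left out 1 library each, and for TPM as deposited without scaling. Sdc1 at 5.87, Cd93 at 4.78, Epcam at 3.91 and Cd9 at 3.04 lie to the right of 0 in every fit shown, and Ptprc at -1.67 to the left.

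The libraries' titles carry codes with 2 prefixes whose meaning the labels do not give. Within the more frequent prefix (MBC replicates 1 and 2, PC replicates 1 to 3) the same 4 genes were called higher and Ptprc lower. In total 1290 of 11573 genes tested were called within that prefix, 873 higher and 417 lower. Its log2 fold changes were 5.92 for Sdc1 (adjusted p = 0.00144), 5.01 for Cd93 (adjusted p = 0.00367), 4.01 for Epcam (adjusted p = 0.0166), 3.34 for Cd9 (adjusted p = 0.021) and -2.06 for Ptprc (adjusted p = 0.0154). The other prefix holds 1 library of each group and gives no test.

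Scaling moved the whole table but turned none of the 7 genes. Of the calls across all genes 74.9% were higher in PCs, and this share was 13.5% with TPM as deposited, 47.7% with immunoglobulin genes removed and 59.5% after quantile normalization. The median log2 fold change of all genes was 0.14 with the scaling used and -0.91 with TPM as deposited. Under each of these 3 alternatives the 7 genes again gave 4 calls higher and 1 lower. With TPM as deposited 472 of all 11573 genes tested were called higher and 3018 lower, so a lower call was common there. With immunoglobulin genes removed 393 of 11344 genes were called higher and 431 lower. After quantile normalization 675 of 11573 were called higher and 460 lower. The fall of Ptprc and the rise of the others are read against the median of the same fit. This median was -0.11 with immunoglobulin genes removed and -0.06 after quantile normalization. The log2 fold change of Ptprc was -1.67 with the scaling used and -2.99 with TPM as deposited. With immunoglobulin genes removed it was -1.96 and after quantile normalization -3.09, so its size depended on the scaling.

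The low MBC levels were set against genes of similar PC level. Of 3317 genes other than immunoglobulins between 8 and 80 scaled TPM in all PC libraries, 2.17%, 4.04% and 0.151% were listed at 0 in MBC replicates 1, 2 and 3, and 35 genes (1.06%) at 0 in both of the first 2. Sdc1 and Epcam were at 0 in both of these libraries, and Cd93 and Cd9 at 0 in the first.

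The order of levels differed between the groups. In PCs the order of the means was Ptprc, Sdc1, Cd93, Spn, Epcam, Cd9 and Cd320. Cd93 and Spn, Spn and Epcam, and Epcam and Cd9 overlapped in their ranges, whereas Ptprc, Sdc1 and Cd320 were separated from their neighbours. Relative to Sdc1 in the same library, Cd93 stood at 31.2, 68.5, 68.2 and 50.8 per 100 in PC replicates 1 to 4, Cd9 at 12.3, 25.0, 17.7 and 25.4 and Epcam at 10.7, 41.5, 36.0 and 22.4. PC replicate 1 had the lowest of these 3 ratios, and Sdc1, by which each was divided, was highest there. Spn stood at 32.6, 42.7, 24.1 and 30.0 per 100 of Sdc1, lowest in PC replicate 3. In MBCs Ptprc and Spn were the first, with Spn below 1 per 100 of Ptprc in every library, and each of the other 5 overlapped in range with the next of them. In bulk samples, fewer cells that carry a transcript and less of it per cell cannot be told apart.

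The genes whose profile over the 7 libraries was most like each of the 7 were found by the root mean square difference of log2 levels after centring, over 11314 genes. For Sdc1 they were Bhlha15 (a transcription factor of secretory cells; difference 0.21), Cd28 (a costimulatory receptor also made by PCs; 0.22) and Hid1 (a Golgi trafficking protein; 0.30). Bhlha15 had 0 to 0.156 scaled TPM in MBCs and 55.3 to 58.7 in PCs, so its PC libraries lay closer together than those of Sdc1. For Cd93 they were Gpx3 (a secreted glutathione peroxidase; 0.21), Tigit (an inhibitory receptor of T and NK cells; 0.23) and its neighbour Thbd (0.24).

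Cd28 and Tigit are T cell genes as well. Tigit had 30.7, 34.0, 40.9 and 24.6 scaled TPM in PC replicates 1 to 4, and the 6 T cell markers together had 14.6, 26.4, 35.2 and 32.6. The part of T cells in these profiles was not tested. For Cd9 the nearest profiles were Yipf5 (0.16), Herpud1 (0.22) and Magt1 (0.22), which act in the endoplasmic reticulum and Golgi and were present in MBCs at 5.32 scaled TPM or more. For Epcam they were Cpeb3 (an RNA-binding regulator of translation; 0.30), Rhobtb1 (0.31) and H13 (signal peptide peptidase; 0.36).

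The profile of Ptprc had the closest counterparts, Ptpn1 (a tyrosine phosphatase; 0.12), Kdm3b (a histone demethylase; 0.15) and Msn (moesin, which links membrane proteins to actin; 0.15). All 3 were highest in MBC replicate 2 and lower in every PC library. The nearest to Spn were Rabac1 (0.23), Mtdh (0.26) and Gm37298 (0.32), and to Cd320 Gm43121 (0.21), Gm13554 (0.23) and Srp14 (0.28). With 7 libraries in 2 groups, any gene of like size and direction will be near.

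The relatives, partners and modifying enzymes of the 7 proteins were read from 8 lists. Over all lists 69 of 96 further genes were tested, 7 were higher in PCs and 9 lower (10 and 12 without MBC replicate 3), where 6.41% of all genes tested were higher and 2.14% lower (13.8% and 7.94% without that library). The median log2 fold change was 0.22 against 0.14 for all genes. No called gene of the lists changed direction under the 3 other scalings, but Hs3st3b1, Lgals1, Cd81 and Mmadhc each lost the call under 2 of them. Over the 7 fits that left out 1 library each, Cd22, Cd81 and Thbd were called in every fit. The call was lost in 1 fit for Selplg and Msn, in 2 for Hnrnpll and Cd37, in 4 for Hs3st3b1, Pag1 and Tspan2, in 5 for Hs3st1, Lyn, Blk, Lgals1 and Gcnt1, and in 6 for Mmadhc. With replicates paired by number 11 of the 16 called genes lost the call, and 10 did with pairing by title code. Hs3st3b1, Lyn, Blk, Pag1, Hnrnpll, Lgals1, Msn, Gcnt1, Cd37 and Tspan2 lost it under both and Cd81 under the first (adjusted p = 0.0726). The paired fits also lack PC replicate 4 and PC replicate 2, and without these libraries alone 10 and 11 genes lost the call. With no filter on low values 10 of the 16 lost it, Cd22, Cd81 and Thbd not among them.

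**Figure D3:**
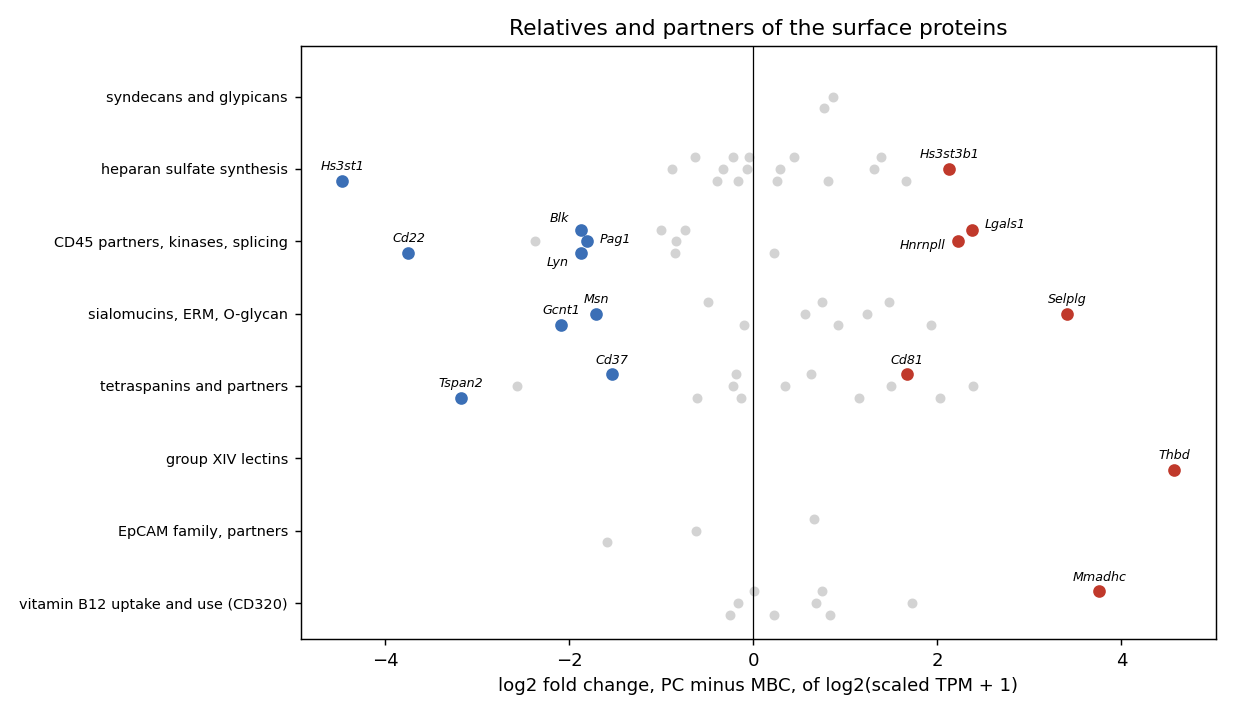
Each point is a tested gene of the list named at the left, placed by its log2 fold change (PC minus MBC) on the horizontal axis; vertical offsets only separate points. Red points were called higher and blue points lower in PCs, and grey points were not called; Thbd at 4.57 is the highest and Hs3st1 at -4.47 the lowest.

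Among syndecans and glypicans, the proteoglycan relatives of CD138, 2 of 9 others were tested and 0 were called by limma, with 0 at an unadjusted p under 0.05. Sdc4, the other abundant syndecan, had 36.4, 27.1 and 4.42 scaled TPM over MBC replicates 1 to 3 and 19.2 to 39.6 in PCs (log2 fold change 0.77, adjusted p = 0.507), and its sign turned with TPM as deposited and without MBC replicate 3. Sdc2 and the 6 glypicans did not reach the filter. Of 20 genes that build or trim heparan sulfate, the sugar chain of CD138, 17 were tested, 1 was higher and 1 lower (median log2 fold change -0.05).

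Both called genes of the heparan sulfate list encode 3-O-sulfotransferases, which add a late sulfate to the chain. Hs3st1 was at 59.6, 89.7 and 3.54 scaled TPM over MBC replicates 1 to 3, and PC replicates 1 to 4 had 0, 0.728, 0.357 and 0.293 (log2 fold change -4.47, SE 0.94, adjusted p = 0.0179), and the library labelled MBC replicate 3 lay between the groups. Without it the log2 fold change was -5.81 (adjusted p = 3.6e-04). Hs3st3b1 was at 0.576, 0.930 and 0.244 in the MBC libraries and at 6.91, 4.90, 7.36 and 4.56 in the PC libraries (2.13, SE 0.47, adjusted p = 0.0226). In 4 of the 17 tested genes of this list the groups did not overlap, against 21.7% of all genes tested. Besides the 2 called genes these were Ext1 and Extl3, in opposite directions. The polymerase gene Ext1 had a mean of 1.09 ± 0.267 (SD, n = 3) over the MBC and 4.47 ± 0.591 (SD, n = 4) over the PC libraries. It did not pass (1.39, limma, adjusted p = 0.0963). Extl3 was at 8.30 to 9.06 in MBCs and 2.69 to 7.37 in PCs and did not pass either (-0.64, limma, adjusted p = 0.459).

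Of 14 genes of CD45 partners, Src family kinases and CD45 splicing, 12 were tested, 4 were lower and 2 higher (5 and 2 without MBC replicate 3, where Fgr joined), with a median log2 fold change of -0.93. Cd22, the inhibitory sialic acid-binding coreceptor that CD45 can bind, was at 267.6, 283.4 and 191.9 scaled TPM in MBCs and 9.60, 11.8, 25.0 and 30.0 in PCs (-3.75, SE 0.45, adjusted p = 7.0e-04). Lyn and Blk, the Src family kinases of B cells, had log2 fold changes of -1.87 (adjusted p = 0.0306) and -1.87 (adjusted p = 0.0325), and Pag1, the adaptor that recruits the Src inhibitor Csk, had -1.81 (adjusted p = 0.0181). The 4 PC libraries of Lyn lay between 25.0 and 26.4, the 3 MBC libraries between 56.6 and 203.4.

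Hnrnpll, the splicing factor that makes Ptprc mRNA skip its variable exons, was at 0, 0 and 0.273 scaled TPM over MBC replicates 1 to 3, and PC replicates 1 to 4 had 3.74, 6.23, 2.62 and 4.31 (2.22, SE 0.45, adjusted p = 0.0155; 2.34 without MBC replicate 3, adjusted p = 0.0164). Every PC library was above every MBC library, at a low level. Its general relative Hnrnpl had 14.1 to 65.5 in MBCs and 35.8 to 62.6 in PCs (0.22, adjusted p = 0.842). Lgals1, the galectin that binds glycans of CD45 and CD43, rose from 0.746, 10.3 and 4.56 to 28.7, 26.9, 25.2 and 16.4 (2.38, SE 0.63, adjusted p = 0.0469).

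Of 12 genes of sialomucins, ERM proteins (which tie CD43 to actin) and core O-glycan enzymes, 11 were tested, 1 was higher and 2 lower, with and without MBC replicate 3 (median log2 fold change 0.75). Selplg, the sialomucin PSGL-1 that binds selectins, was at 2.99, 24.4 and 1.87 scaled TPM in MBCs and at 71.2, 66.8, 80.0 and 61.8 in PCs (3.41, SE 0.68, adjusted p = 0.0134). As with Spn, MBC replicate 2 was the highest of the MBC libraries. Msn fell from 455.4, 513.9 and 232.0 to between 104.5 and 126.1 (-1.71, SE 0.34, adjusted p = 0.0143), and Gcnt1, the enzyme that branches O-glycans into core 2, from 15.7, 5.76 and 14.7 to between 1.55 and 2.27 (-2.09, adjusted p = 0.038). Cd44, the hyaluronan receptor, had 73.6, 71.9 and 15.5 in MBCs and 89.1 to 122.4 in PCs and did not pass (1.23, adjusted p = 0.186), and its sign turned with TPM as deposited.

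Among tetraspanins and their partners, 14 of 20 genes other than Cd9 were tested, 1 was higher and 2 lower (3 and 3 without MBC replicate 3), with a median log2 fold change of 0.11. Cd81, a tetraspanin found on many cell types, was at 81.7, 120.7 and 165.7 scaled TPM in MBCs and 334.9 to 396.9 in PCs (1.67, SE 0.32, adjusted p = 0.0114), a difference of 0.35 when TPM was left unscaled (adjusted p = 0.499). Cd37, a tetraspanin of mature B cells, fell from 433.2 to 806.1 in MBCs to 170.3 to 246.2 in PCs (-1.54, adjusted p = 0.0166), and Tspan2 from 3.34 to 29.8 to at most 0.297 (-3.18, adjusted p = 0.0168). Cd53 was at 224.9 to 250.9 in MBCs and 198.5 to 244.9 in PCs (-0.13, SE 0.27, adjusted p = 0.817).

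For the EpCAM family, its partners and the proteases that cut it, 3 of 7 others were tested and 0 called by limma; 1 of them, Psen2, had an unadjusted p under 0.05 and was called lower without MBC replicate 3 (-2.13, adjusted p = 0.0297). The tight junction partner Cldn7 was at 0 in MBCs and 0.111 to 1.37 scaled TPM in PCs. Of 10 genes of vitamin B12 uptake and use, 9 were tested and 1 was higher, Mmadhc, which sorts the vitamin to its enzymes inside the cell. It was at 0.543, 0.512 and 25.8 in MBC replicates 1 to 3, and PC replicates 1 to 4 had 38.9, 59.2, 59.4 and 56.0 (3.76, SE 0.91, adjusted p = 0.0333). The library labelled MBC replicate 3 was nearer to the PCs than to the other MBC libraries, and without it the log2 fold change was 5.13 (adjusted p = 1.7e-04) and Mmachc, its partner in B12 processing, was called too (2.30, adjusted p = 0.0404).

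**Figure D4:**
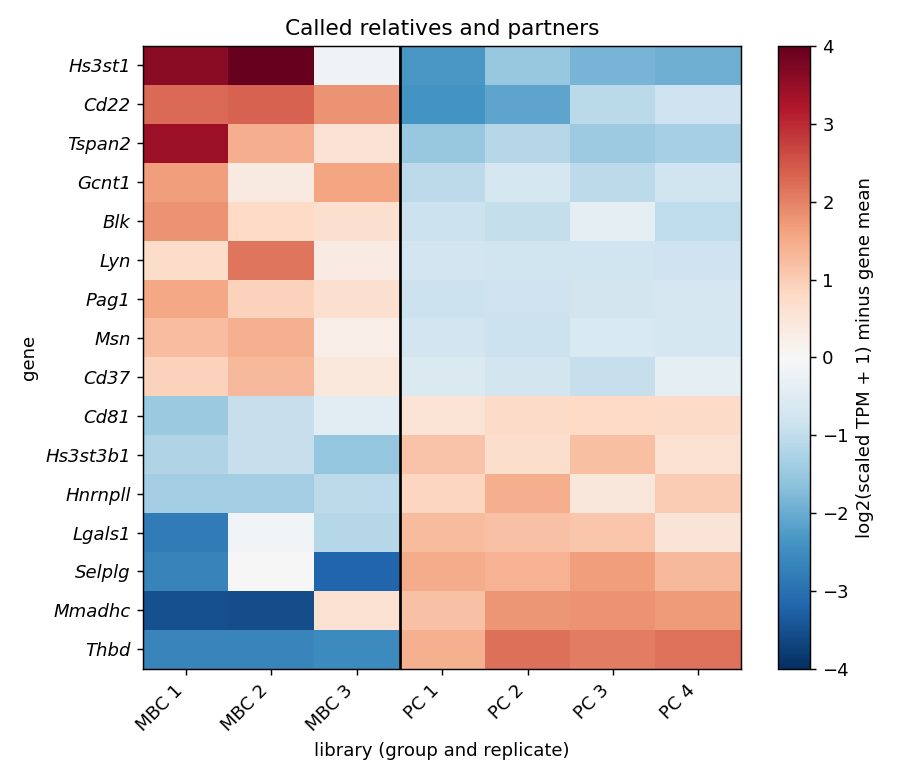
Colours give log2(scaled TPM + 1) minus the mean of the gene over the 7 libraries (columns) for the 16 called genes of the lists (rows), from Hs3st1, the most lowered, to Thbd, the most raised. In Hs3st1 and Mmadhc the column MBC 3 is nearer to the PC columns than the other MBC columns are.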

How the data were processed

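RNA of sorted MBCs (3 libraries) and PCs (4 libraries) was made into libraries with a Nugen kit and read on an Illumina HiSeq. The authors deposited TPM rounded to 2 decimals for 48795 Ensembl genes. The submitters' processing notes name STAR 2.5.2a, RSEM 1.3.0 and build GRCm38, and the annotation release is not given in the sources used here. Coordinates and symbols come from GENCODE M21 (GRCm38) and promoter sequences from RefSeq (GRCm38.p6), where 6 of the 7 genes had an entry.

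Each library's TPM was scaled by the median of its ratios to the per-gene geometric mean, taken over 9305 genes that no library lists at 0. limma was run on log2(scaled TPM + 1) of the 11573 genes with 1 TPM in 3 or more libraries, a scale that understates the change of low genes, with version 3.58.1 in R 4.3.3 (lmFit, eBayes with trend), PC minus MBC, without covariates, after the procedure was tested on simulated data. There 81% of 100 genes raised by 4 on the log2 scale were called, and 35% of 100 raised by 2. The raised genes were chosen among those of higher level. Of 11373 unchanged genes 2 were called. A gene that was not called may therefore still differ. Groups came from the sample descriptions. The submitters' notes also list DESeq2 1.18.1 without its role, and the body of the study states no test for these libraries; the deposited TPM are not counts, so it was not used here.

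Depth was estimated from genes with 1 transcript, whose low values lay within 0.15 of a whole number of reads in 73.6% to 82.6% of cases, against 30.0% by coincidence. No molecular identifiers were used, so reads are not independent molecules and floors cover counting error only. Alternatives were other scalings, pseudocounts and filters, each library left out, title prefixes and replicate blocks. A planned permutation test for members under the filter was not needed, since all 7 passed.

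The members and lists were chosen with earlier results of these data known, and 3 listed genes are not reported here. Named from the lists are the called genes and those with the 3 highest mean levels, plus the 3 nearest profiles of each member, immunoglobulin genes left out; others named beside them were chosen after their values were seen. Python 3.11.15 with pandas 2.3.3, numpy 2.4.6 and matplotlib 3.10.9 was used for the rest.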

Additional observations from a re-analysis of the deposited data

Results flagged for a closer look

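In 3 of the 55 genes examined 1 PC library stood apart from the other 3 by Dixon's criterion, which chance meets in about 1 of 20 groups. Cd28 was at 41.9 scaled TPM in PC replicate 4 and at 55.2 to 55.7 in the other PC libraries. Mmadhc was at 38.9 in PC replicate 1 and at 56.0 to 59.4 in the others. Kdm3b was at 12.8 in PC replicate 3 and at 10.7 to 11.0 in the others. None of the 7 surface protein genes was among them.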

How the results depend on the processing

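Of 132 alternative fits of the 7 genes, 119 left direction and call as they were, 12 lost a call (Ptprc 10, Cd9 2), 1 gained one (Spn without MBC replicate 2) and 0 changed sign. Sdc1, Cd93 and Epcam were called in all 19 of their alternatives, with adjusted p from 5.1e-05 to 0.00144, from 1.8e-04 to 0.00556 and from 9.2e-04 to 0.018, and Cd320 in 0 of 18. Cd320 had no value under the filter at 5 TPM. Ptprc also missed the threshold with no filter (adjusted p = 0.0841) and with no mean-variance trend (adjusted p = 0.0585).

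The count of genes called, 990, became 3490 with TPM as deposited and 560 with no filter, and it ranged from 542 (without PC replicate 2) to 2511 (without MBC replicate 3) over the fits that left out 1 library; it was 604 without PC replicate 3 and 580 without PC replicate 4. The count of the 7 genes called ranged from 4 to 5 over those fits. The cause was not tested. Same-numbered samples did not deviate together over all pairs (r = 0.11, -0.04 and -0.08), nor did all pairs that share a title code (r = 0.11, -0.00 and 0.22). The meaning of the codes is not given, so it is unknown whether the 3 codes found in both groups mark pairs. With the replicate block by number 457 genes and 3 of the 7 were called, and with the block by title code 535 and 3. Cd9 (2.94, adjusted p = 0.0745, and 2.96, adjusted p = 0.0546) and Ptprc (-1.66, adjusted p = 0.0974, and -1.62, adjusted p = 0.0615) lost the call. The first block leaves out PC replicate 4 and the second PC replicate 2, and without these libraries alone 580 and 542 genes were called.

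Among genes not called, the sign turned with TPM as deposited for Sdc4 (-0.47), Cd164 (-0.75), Cd44 (-0.07), Adam10 (-0.61) and Srp14 (-0.24), for Sdc4 also within the more frequent title prefix (-0.15) and without MBC replicate 3 (-0.09; up to 1.31 without another library), and for Xylt1 without MBC replicate 1 (0.52; down to -0.79 without another library). Of 302 alternative fits of the 16 called list genes 104 lost the call and 0 changed sign. Depth limits the MBC values of Sdc1 and Epcam (3 libraries not above the floor), Cd93 and Cd320 (2 each) and Cd9 (1).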

Other observations

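Some transcripts of other surface proteins are given here from the PC and mature B cell marker lists that were used to check the labels. Tnfrsf17, which encodes the APRIL and BAFF receptor BCMA, was listed at 0 in all 3 MBC libraries and at 17.7, 18.9, 17.4 and 15.0 scaled TPM in PC replicates 1 to 4. Slamf7, a self-binding receptor used as a PC target, was present in both groups, at 77.8, 80.6 and 93.9 in MBCs and at 315.6, 410.0, 380.4 and 387.6 in PCs (log2 fold change 2.14, limma, adjusted p = 0.00122). Among surface proteins of mature B cells, Fcer2a (CD23) had 291.7, 343.2 and 103.7 in MBCs and 7.95 to 15.7 in PCs (-4.17, adjusted p = 4.8e-04), and Cr2 (the complement receptor CD21) had 63.8 to 148.2 in MBCs and 3.64 to 7.19 in PCs (-4.01, adjusted p = 4.0e-04).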
